A study of Mus musculus with 24 samples.

Results

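Postsynaptic density scaffold and kinase genes were followed across neurons sorted from the cortex of adult mice and profiled by bulk RNA-seq. The set holds 31 named genes, matched by NCBI Gene number to mouse symbols. They were taken from a list written for this work with earlier results of these data known. All 31 were among the 36528 genes of the files and all 31 passed the filter on low counts, which left 14890 genes. The labels call the sorted subtypes PV, SST, VIP and EXC without spelling the names out, and each has 6 libraries: 3 male and 3 female in PV, 4 and 2 in SST, 2 and 4 in VIP, and 4 and 2 in EXC. Live cells carrying GFP or tdTomato were collected from transgenic reporter lines, so each group is defined by which cells its reporter marks, and the labels used here give neither the driver of the reporter, the strain nor an age beyond adult. Nor do they tell if each library is a different animal, and the p-values therefore cover only the spread among these libraries, which may be technical.

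The postsynaptic density is the protein mesh under the membrane of an excitatory synapse, usually on the head of a dendritic spine. Membrane-associated guanylate kinases such as PSD-95 hold glutamate receptors in place, SAPAP proteins tie them to SHANK proteins, and Homer proteins link SHANK to metabotropic glutamate receptors. Calcium that enters through NMDA receptors binds calmodulin, which switches on the CaM kinases and the phosphatase calcineurin. Many cortical GABA neurons carry few or no spines and receive excitatory input on the dendritic shaft, and gephyrin is the scaffold of inhibitory synapses.

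Total counts per library were 1548907 to 4653119 in PV, 5508099 to 15978459 in SST, 4528457 to 7755954 in VIP and 4370732 to 8504337 in EXC. The smallest count of any of the 31 genes in a library was 3 reads. Levels are CPM after TMM scaling, which adjusts libraries for their composition, and a gene was called when its adjusted p was under 0.05 in edgeR's quasi-likelihood test, with Benjamini-Hochberg adjustment over all 14890 genes. The labelled identities were visible in 8 GABA neuron markers, whose summed level was 7414 to 9592 CPM in PV, 5477 to 8790 CPM in SST and 6415 to 9050 CPM in VIP, against 394 to 1004 CPM in EXC. The 9 excitatory neuron markers summed to 143 to 208 CPM in PV, 129.5 to 222 CPM in SST and 24.7 to 86.3 CPM in VIP, against 721 to 1831 CPM in EXC, with Emx1 at 0 in every PV and VIP library. Of the 8 excitatory markers tested, 7 were lower and 1 higher than EXC in each GABA sort. EXC replicate 3 had both the lowest excitatory sum and the highest GABA sum of its subtype. Other cells' markers also differed: 8 oligodendrocyte genes summed to 2973 and 2978 CPM in EXC replicates 2 and 6, and 8 astrocyte genes to 252 to 810.4 CPM in PV, 243 to 357 CPM in SST and 1125 to 1678 CPM in VIP, against 519 to 4582 CPM in EXC, with none of either list at 0. Gene by gene, 3 of the 8 astrocyte genes were higher and 1 lower in PV than in VIP. In SST 2 of the 8 were lower than in VIP and 0 higher, so most of the astrocyte list did not follow its sum. The 5 dentate granule cell genes, among them Prox1, summed to 5.55 to 18.2 CPM in PV, 5.36 to 13.8 CPM in SST and 1077 to 1173 CPM in VIP, against 1139.8 to 1628 CPM in EXC, and 5, 5 and 4 of the 5 were lower than EXC in PV, SST and VIP. Only 1 of the 5 was lower in PV than in VIP, and 2 were lower in SST than in VIP. Most of this list was thus not called as higher in VIP than in PV or SST. The 5 ciliated cell genes summed to 29.9 to 135 CPM in PV and to at most 2.13 CPM in SST and 0.92 CPM in VIP, against at most 4.09 CPM in EXC, with Ccdc153 at 0 in every VIP and Tmem212 at 0 in every EXC library. The part of such cells in the results was not tested. The 7 markers of striatal medium spiny neurons summed to 396 to 1475 CPM in SST, against 122 to 187 CPM across the other subtypes, with none at 0. In bulk samples fewer cells of a type and less RNA per cell cannot be told apart.

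Most of the 31 genes were lower in the GABA sorts than in EXC. Against EXC, the mean of PV, SST and VIP was higher for 2 and lower for 22 of the 31 genes, where 18.1% of all genes tested were higher and 24.5% lower. PV was higher than EXC for 5 and lower for 20 (all genes 20.3% and 25.6%), SST higher for 2 and lower for 20 (17.1% and 21.3%), and VIP higher for 3 and lower for 22 (18.4% and 20.7%). The median log2 fold change over the 31 genes was -1.05 in PV, -0.83 in SST and -0.92 in VIP, beside -0.12, -0.06 and 0.01 over all genes. These pairs share their EXC libraries. Lower in all 3 pairs were 16 of 31, against 8.95% of all genes: Dlg1, Dlg3, Dlg4, Dlgap1, Shank2, Shank3, Camk2a, Camk2b, Nrgn, Ppp3ca, Iqsec2, Ppp1r9b, Baiap2, Synpo, Kalrn and Lzts3. Camk2d was the 1 gene higher in all 3 pairs (6.29% of all genes). Dlgap2, Homer2 and Camk2g were called in both directions, and Begain and Gphn passed the test in none of these pairs. In 9 of 31 genes the 6 EXC libraries lay all above or all below the other 18, against 6.61% of all genes.

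The sequencing pools named in the labels overlap with the subtypes. All PV and 5 EXC libraries were in POOL6188, 5 SST libraries with VIP replicates 1 and 3 in POOL7098, the other 4 VIP libraries with EXC replicate 3 in POOL7099, and SST replicate 5 alone in POOL7100. Within POOL6188 PV was higher than EXC for 5 and lower for 21 of the 31 genes, where 21.8% of all genes in that fit were higher and 23.9% lower. No SST library shares a pool with an EXC library, and for VIP the link is EXC replicate 3 alone. That library lay above all 4 VIP libraries of its pool for 15 genes, below all 4 for 8 and within their range for 8. The same count was not made over all genes, so it is not read as particular to the 31. With pool as a covariate 4 of the 31 genes were lower in SST and 11 in VIP than in EXC (14.8% and 11.5% of all genes), a fit in which both comparisons rest on that single EXC library. Among genes called with or without pool, the fold change over EXC turned from below to above 0 in SST for Dlg3, Dlg4, Dlgap3, Dlgap4, Shank1, Shank3, Camk2b, Nrgn, Ppp1r9b, Synpo and Arhgap32, and in VIP for Dlgap4, Shank3, Camk4 and Arhgap32. Of these values with pool as a covariate, only that of Arhgap32 in SST (1.15) was called. SST against EXC has no within-pool value.

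**Figure D1:**
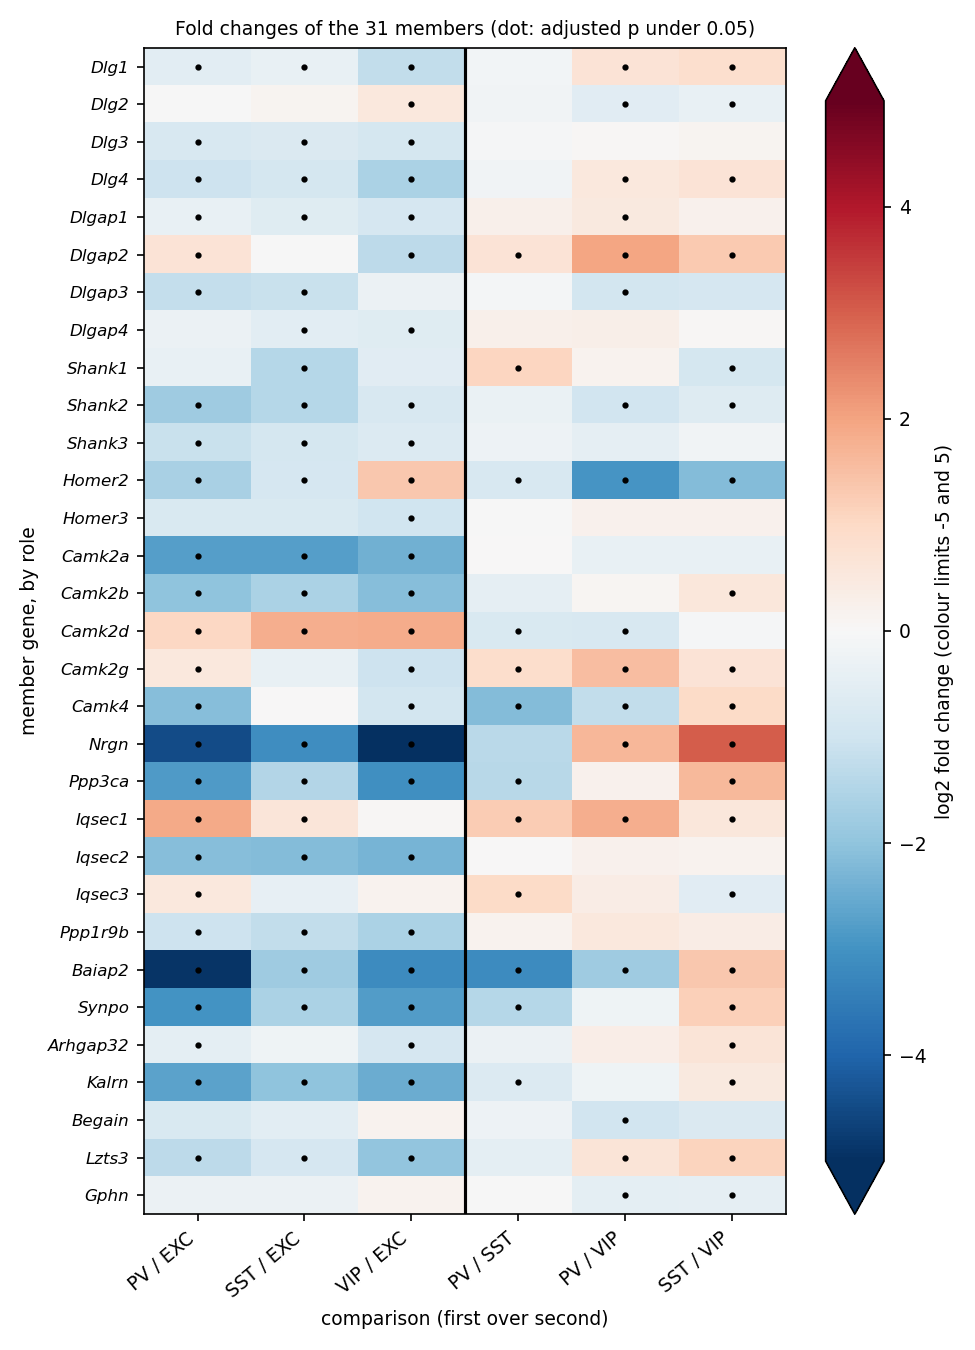
Log2 fold changes of the 31 genes (rows, by role) in 6 pairs of subtypes (columns, first over second), with red for higher and blue for lower in the first subtype. A dot marks an adjusted p under 0.05, and the colour scale ends at -5 and 5, which leaves VIP against EXC for Nrgn (-6.10 ± 0.58) beyond its end. Blue dominates the 3 columns against EXC, and both colours occur in the columns between GABA sorts.

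Among the membrane-associated guanylate kinases, Dlg4, Dlg3 and Dlg1 were lower than in EXC in every GABA sort and Dlg2 was not. Dlg4, which encodes PSD-95, the main scaffold of the density (NCBI Gene 13385, GRCm38 chromosome 11, 70017203 to 70045535), had a lowest, median and highest level of 112, 129 and 162 CPM in PV, 125, 138 and 189 CPM in SST and 53.2, 88.3 and 135 CPM in VIP, against 218, 273 and 347 CPM in EXC. No library of a GABA sort reached the lowest EXC library. Its log2 fold change was -1.05 ± 0.19 in PV, -0.89 ± 0.18 in SST and -1.56 ± 0.19 in VIP (± SE; adjusted p = 5e-05, 0.000367 and 1.95e-07), and it was lower in VIP than in PV and SST as well, the PV call being lost without PV replicate 6 (adjusted p = 0.0713). Dlg3, which encodes SAP102, averaged 121 ± 13.2 CPM in PV, 126 ± 6.31 CPM in SST and 118 ± 15.2 CPM in VIP, against 210.5 ± 49.8 CPM in EXC (± SD, n = 6 each). It passed the test in no pair of GABA sorts. Dlg1, which encodes SAP97, averaged 78.99 ± 5.66 CPM in PV, 88.1 ± 7.23 CPM in SST and 48.3 ± 4.14 CPM in VIP, against 114 ± 24.3 CPM in EXC, and its VIP libraries lay below all 18 others. Its call in SST against EXC (-0.37 ± 0.13, adjusted p = 0.0231) was lost without SST replicate 3 (0.0642) or SST replicate 5 (0.0671). Dlg2, which encodes PSD-93, had 494, 614 and 690.5 CPM in PV, 549, 688 and 807 CPM in SST and 781, 897 and 981 CPM in VIP, against 512, 579 and 768 CPM in EXC. It was higher in VIP than in EXC (0.54 ± 0.13, adjusted p = 0.00203), PV and SST, and the SST call was lost without SST replicate 3 (adjusted p = 0.0564) or within POOL7098 (0.165).

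The Dlg family was also set side by side per length, from the authors' deposited RPKM values. The share of a gene in the summed RPKM of its family needs no scaling between libraries, and it was compared by an exact two-sided permutation test of 6 against 6 libraries over 114 tests, whose smallest p is 0.00216 and smallest adjusted p 0.00588. Summed Dlg RPKM averaged 54.3 ± 4.73 in PV, 59.2 ± 4.09 in SST and 55.7 ± 2.49 in VIP, against 86.2 ± 5.94 in EXC. Dlg4 made up 32.7% ± 3.87 of it in PV, 33.2% ± 3.897 in SST and 22.4% ± 6.53 in VIP, against 43.1% ± 4.11 in EXC. Dlg2 took 33.3% ± 2.29 in PV, 33.95% ± 3.74 in SST and 49.1% ± 6.63 in VIP, against 21.8% ± 4.67 in EXC. Dlg2 was thus the larger part of the family in VIP and Dlg4 in EXC, while their mean shares in PV and in SST lay within 1 SD of each other. Both shares differed between each GABA sort and EXC (adjusted p between 0.00588 and 0.013, exact permutation test), and for Dlg3, at 20.8% ± 1.67, 19.6% ± 1.99 and 20.3% ± 2.11 against 22.9% ± 4.89 in EXC, no pair passed.

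SAPAP scaffolds bind the guanylate kinase domain of PSD-95, and 3 of the 4 genes were called only as lower than EXC, while Dlgap2 was higher in PV and lower in VIP. Dlgap1 had 732, 823 and 975 CPM in PV, 472, 722 and 933 CPM in SST and 409, 573 and 756 CPM in VIP, against 955, 1095 and 1184 CPM in EXC. It was lower than EXC in SST (-0.62 ± 0.15, adjusted p = 0.00185), in VIP (-0.85 ± 0.16, 7.85e-05) and in PV (-0.37 ± 0.15, 0.0468). The PV call was lost without any 1 of EXC replicate 2, EXC replicate 6, SST replicate 5, PV replicate 6 or VIP replicate 5 (adjusted p from 0.0757 to 0.106), and was kept within POOL6188 (adjusted p = 0.00545). Dlgap2 (NCBI Gene 244310, chromosome 8, 14095776 to 14853426) had 189, 225 and 272 CPM in PV, 131, 141 and 161 CPM in SST and 44.9, 49.7 and 78.4 CPM in VIP, against 121, 144 and 163 CPM in EXC. PV lay above and VIP below every library of the other subtypes, and SST and EXC overlapped. All 3 pairs of GABA sorts were called, with log2 fold changes of 0.69 ± 0.15 for PV over SST, 1.99 ± 0.15 for PV over VIP and 1.30 ± 0.15 for SST over VIP. Dlgap4 averaged 82.9 ± 7.63 CPM in PV, 72.9 ± 22.3 CPM in SST and 66.6 ± 26.4 CPM in VIP, against 105 ± 20.1 CPM in EXC, and its calls in SST and VIP were lost without EXC replicate 2 (adjusted p = 0.0883 and 0.0835), the SST call also without SST replicate 5 (0.088). Dlgap3 averaged 11.5 ± 3.099 CPM in PV, 12.8 ± 5.38 CPM in SST and 22.4 ± 11.9 CPM in VIP, against 27.5 ± 8.799 CPM in EXC, and was lower in PV and SST than in EXC. It was also lower in PV than in VIP (-0.92 ± 0.33, adjusted p = 0.0246), a call lost without PV replicate 6, VIP replicate 2 or VIP replicate 5 (adjusted p = 0.06, 0.075 and 0.0629). SST against VIP missed the threshold (-0.83 ± 0.33, 0.053) and passed it without SST replicate 3 (0.0231) or EXC replicate 2, 3 or 6 (0.0498, 0.0241 and 0.0481).

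SHANK scaffolds form the deeper layer of the density. Shank2 (NCBI Gene 210274, chromosome 7, 143978077 to 144426043) had 77.6, 92.01 and 104 CPM in PV, 96.7, 115 and 132 CPM in SST and 139.8, 174 and 215 CPM in VIP, against 227, 309 and 399 CPM in EXC. Every EXC library was above the other 18, and every VIP library was above those of PV and SST. Shank2 was lower than EXC in PV (-1.76 ± 0.15, adjusted p = 2.48e-10), SST (-1.43 ± 0.14, 1.18e-08) and VIP (-0.79 ± 0.15, 9.21e-05), and it was lower in PV and SST than in VIP. Shank1 had 269, 332 and 473 CPM in PV, 123, 166 and 237 CPM in SST and 166, 237 and 547 CPM in VIP, against 271, 472 and 679.5 CPM in EXC. It was lower in SST than in EXC (-1.43 ± 0.27, adjusted p = 0.000142) and higher in PV than in SST (1.06 ± 0.27, 0.00414). Its lower level in SST than in VIP (-0.87 ± 0.27, 0.0167) was lost without VIP replicate 2 (adjusted p = 0.0519) or VIP replicate 5 (0.0855), and the fold change was 0.046 within POOL7098. Without the same VIP libraries, 1 at a time, Shank1 was lower in VIP than in EXC (adjusted p = 0.0207 and 0.0479). Shank3 averaged 31.8 ± 9.77 CPM in PV, 37.7 ± 8.95 CPM in SST and 41.7 ± 12.9 CPM in VIP, against 68.4 ± 24.6 CPM in EXC, with no call between GABA sorts. Its VIP call against EXC was lost without EXC replicate 2, EXC replicate 6 or SST replicate 5 (adjusted p = 0.0972, 0.103 and 0.0546). Per length, Shank1 held 74.3% ± 3.28 of the summed Shank RPKM in PV, 52.8% ± 4.49 in SST and 57.5% ± 8.01 in VIP, against 55.4% ± 6.46 in EXC, and the PV share differed from each of the other 3 (adjusted p = 0.00588, 0.00968 and 0.00588 against SST, VIP and EXC, exact permutation test).

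Homer2 was higher in VIP and lower in PV and SST than in EXC. Homer2 encodes a coiled-coil scaffold that joins SHANK to group I metabotropic glutamate receptors (NCBI Gene 26557, chromosome 7, 81600481 to 81706925). Its level was 21.8, 39.8 and 56.9 CPM in PV, 50.2, 67.3 and 88.2 CPM in SST and 202, 271 and 463 CPM in VIP, against 73.5, 128 and 178 CPM in EXC. The VIP libraries were above all 18 others, and the PV and SST libraries overlapped. It was higher in VIP than in EXC (1.33 ± 0.25, adjusted p = 0.000119) and lower than EXC in PV (-1.62 ± 0.26, 1.08e-05) and SST (-0.83 ± 0.24, 0.00858). The SST call was lost without EXC replicates 2, 3 and 6 together (adjusted p = 0.122) and without SST replicates 1 and 3 together (0.102). Between GABA sorts the log2 fold change was -2.95 ± 0.27 for PV over VIP and -2.16 ± 0.25 for SST over VIP (adjusted p = 1.29e-09 and 2.1e-07). PV over SST was -0.80 ± 0.25 (0.02), and 0.15 (0.893) with pool as a covariate. Homer3 was the least abundant of the 31 genes in SST, VIP and EXC by RPKM, at 3.36 ± 1.28 CPM in PV, 3.35 ± 0.893 CPM in SST and 2.85 ± 1.02 CPM in VIP, against 5.62 ± 1.52 CPM in EXC. Among the pairs it was called in VIP against EXC (-0.98 ± 0.34, adjusted p = 0.0215), and without EXC replicate 6 in PV and SST against EXC too (adjusted p = 0.0422 and 0.0359). Of its exonic bases 25.4% overlap Ddx49 on the opposite strand, and no source used here gives the strand setting of the counts, so its reads and those of Ddx49 cannot be told apart.

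The 4 CaMKII genes did not move together: Camk2a and Camk2b were lower and Camk2d higher than EXC in all 3 GABA sorts. Camk2a encodes the alpha subunit of CaMKII, the most abundant kinase of the density (NCBI Gene 12322, chromosome 18, 60925307 to 60988152). Its level was 299, 383 and 611 CPM in PV, 321, 377 and 631 CPM in SST and 326, 439.6 and 897 CPM in VIP, against 1309, 2804 and 3967 CPM in EXC. All EXC libraries lay above the others, with EXC replicate 3 the lowest of them at 1309 CPM. The log2 fold change was -2.75 ± 0.29 in PV, -2.76 ± 0.28 in SST and -2.39 ± 0.29 in VIP (adjusted p = 1.25e-08, 1.77e-08 and 1.51e-07), and no pair of GABA sorts was called. Camk2b, the beta subunit, which binds actin (NCBI Gene 12323, chromosome 11, 5969629 to 6066357), had 200.3, 219.6 and 276 CPM in PV, 264, 284 and 419.6 CPM in SST and 135, 201 and 307 CPM in VIP, against 397, 1007 and 1153 CPM in EXC. Its fold changes were -2.02 ± 0.22, -1.57 ± 0.21 and -2.13 ± 0.22, and SST overlapped EXC through EXC replicate 3. Its higher level in SST than in VIP (0.56 ± 0.22, adjusted p = 0.0476) was lost without any 1 of EXC replicates 2 and 6, PV replicate 6, SST replicates 3 and 5 or VIP replicate 2 (adjusted p from 0.0503 to 0.0966), and PV was lower than SST without EXC replicate 3 (0.0325). The delta subunit gene Camk2d (NCBI Gene 108058, chromosome 3, 126595487 to 126846326) ran the other way, with 119, 129 and 168 CPM in PV, 180.1, 242 and 256 CPM in SST and 161, 247 and 270.5 CPM in VIP, against 43.2, 62.7 and 97.5 CPM in EXC. Each GABA library was above each EXC library, and the fold changes were 1.03 ± 0.18, 1.80 ± 0.18 and 1.85 ± 0.18 (adjusted p = 3.06e-05, 6.57e-09 and 4.49e-09).

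Camk2g and Camk4 were called in all 3 pairs of GABA sorts, though for Camk2g 1 of these pairs turned round and another lost its call once pool entered the fit. Camk2g, the gamma subunit, known for carrying calcium and calmodulin signals to the nucleus in excitatory neurons, had 184, 215 and 254 CPM in PV, 105, 112 and 139 CPM in SST and 65.1, 74.4 and 90.6 CPM in VIP, against 74.03, 169 and 214 CPM in EXC. The 3 GABA sorts did not overlap, and EXC overlapped each of them, with EXC replicate 3 its lowest library at 74.03 CPM. PV over VIP was 1.56 ± 0.18 (adjusted p = 6.9e-08), PV over SST 0.89 ± 0.17 and SST over VIP 0.67 ± 0.18. With pool as a covariate these were 0.41 (adjusted p = 0.414), -0.34 (0.546) and 0.75 (0.00734). Against EXC, Camk2g was lower in VIP (-1.03 ± 0.18, adjusted p = 2.83e-05). Its call as higher in PV than in EXC (0.53 ± 0.17, 0.0141) was lost without EXC replicates 2, 3 and 6 together (0.23, adjusted p = 0.231), and it became lower in SST than in EXC without EXC replicate 3 (-0.46, adjusted p = 0.0107). Camk4 encodes a nuclear CaM kinase that phosphorylates CREB. It had 49.3, 58.1 and 73.4 CPM in PV, 183, 256 and 383 CPM in SST and 90.7, 142 and 157 CPM in VIP, against 149, 281 and 338 CPM in EXC. PV libraries lay below all others, and SST and EXC overlapped (fold change 0.02 ± 0.19, adjusted p = 0.955). The log2 fold change was -2.16 ± 0.20 for PV over SST, -1.22 ± 0.20 for PV over VIP and 0.94 ± 0.20 for SST over VIP (adjusted p = 6.61e-09, 1.61e-05 and 0.000664).

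The mix of CaMKII genes in each GABA sort differed from that in EXC. Summed CaMKII RPKM averaged 114 ± 12.05 in PV, 113 ± 17.9 in SST and 112 ± 31.3 in VIP, against 450.4 ± 123 in EXC. Camk2a made up 39.6% ± 7.91 in PV, 39.2% ± 4.25 in SST and 51.2% ± 9.26 in VIP, against 68.4% ± 5.76 in EXC. Camk2g took 28.8% ± 4.31 in PV, 15.5% ± 3.04 in SST and 11.1% ± 2.62 in VIP, against 5.18% ± 1.499 in EXC. Camk2d took 6.89% ± 0.765 in PV, 12.1% ± 2.69 in SST and 13.7% ± 4.83 in VIP, against 0.969% ± 0.489 in EXC. All 9 of these differences from EXC passed the exact permutation test (adjusted p of at most 0.013). Between GABA sorts the Camk2a share was lower in SST than in VIP (adjusted p = 0.017), a call lost with shares of summed counts (0.0663), and PV differed from SST and VIP in its Camk2g share (0.00588 each). Over all families 63 of 114 share tests passed.

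**Figure D2:**
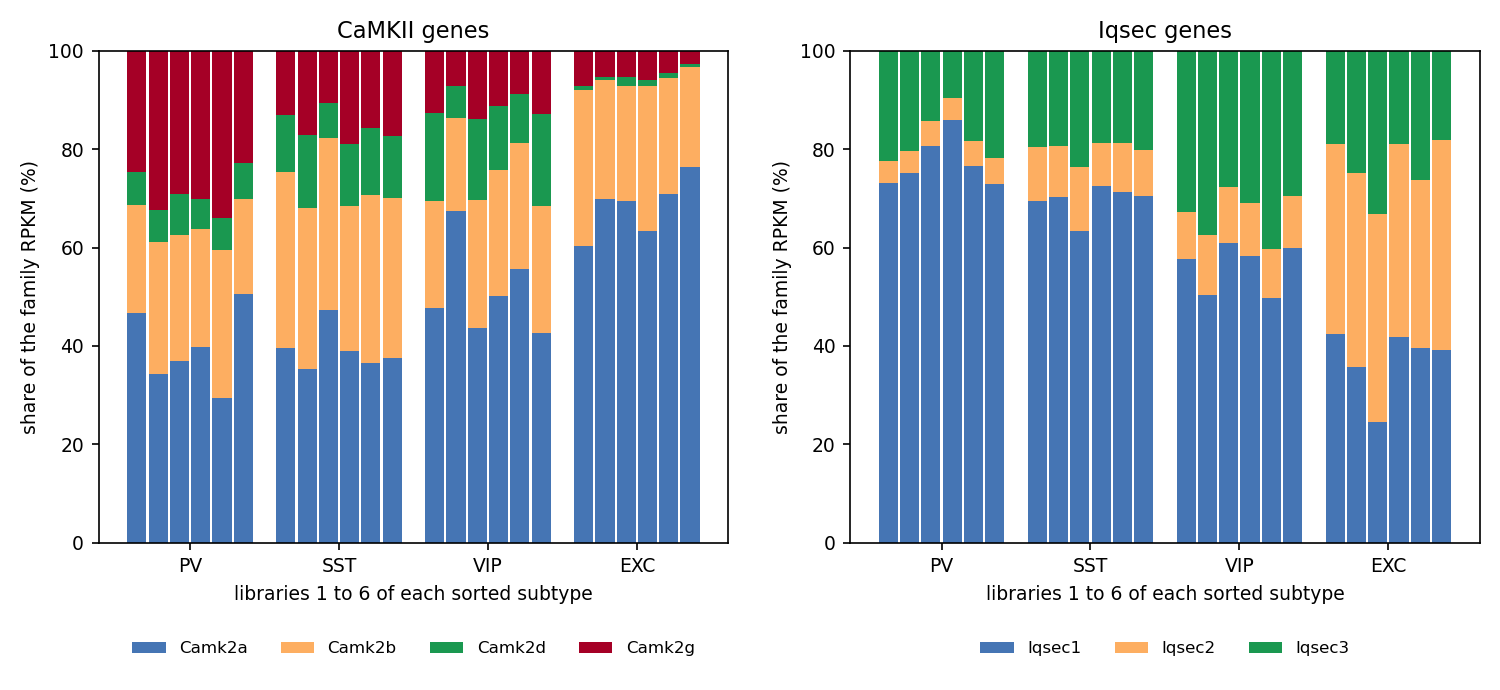
Share of each gene in the summed RPKM of its family (percent, stacked to 100) in each of the 24 libraries, for the CaMKII genes (left) and the Iqsec genes (right). Camk2a averaged 39.6% in PV, 39.2% in SST and 51.2% in VIP, against 68.4% in EXC, and Iqsec2 averaged 4.86%, 10.4% and 10.7%, against 39.4% in EXC.

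Nrgn and Ppp3ca, which both act through calmodulin, were lower than EXC in every GABA sort, with no overlap. Nrgn encodes neurogranin, which holds calmodulin at low calcium (NCBI Gene 64011, chromosome 9, 37544493 to 37552745). It stood at 7.21, 16.4 and 19.3 CPM in PV, 23.6, 38.7 and 54.8 CPM in SST and 0.583, 2.19 and 17.7 CPM in VIP, against 63.7, 380.1 and 443 CPM in EXC. EXC replicate 3, with 63.7 CPM, was closest to the GABA sorts, whose highest library was SST replicate 1 with 54.8 CPM. The log2 fold change was -4.46 ± 0.55 in PV, -3.09 ± 0.49 in SST and -6.10 ± 0.58 in VIP (adjusted p = 2.16e-07, 1.56e-05 and 2.48e-09). SST over VIP was 3.01 ± 0.53 (adjusted p = 8.96e-05). Within POOL7098 it was 4.90, a value that rests on VIP replicates 1 and 3, with 3 and 13 Nrgn reads. PV over SST (-1.36 ± 0.52, 0.0532) missed the threshold and passed it without EXC replicate 3 (0.0182) or VIP replicate 5 (0.00634). The highest VIP library for Nrgn was replicate 5, at 17.7 CPM, and the other 5 had 0.583 to 4.50 CPM. Ppp3ca encodes a catalytic subunit of calcineurin (NCBI Gene 19055, chromosome 3, 136669714 to 136937727). It had 337, 389 and 525 CPM in PV, 859, 1068 and 1234 CPM in SST and 227, 348 and 407 CPM in VIP, against 2542, 2930.2 and 3366 CPM in EXC, with no overlap of EXC or of SST with any other subtype. The fold changes were -2.84 ± 0.16 in PV, -1.46 ± 0.15 in SST and -3.06 ± 0.16 in VIP, with 1.60 ± 0.15 for SST over VIP and -1.37 ± 0.15 for PV over SST (largest adjusted p of these 5 tests 6.75e-08). By RPKM it was the most abundant of the 31 genes in PV, SST and EXC, at 49.3 ± 9.19, 127 ± 16.9 and 357.5 ± 31.6, and the second in VIP after Camk2a.

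**Figure D3:**
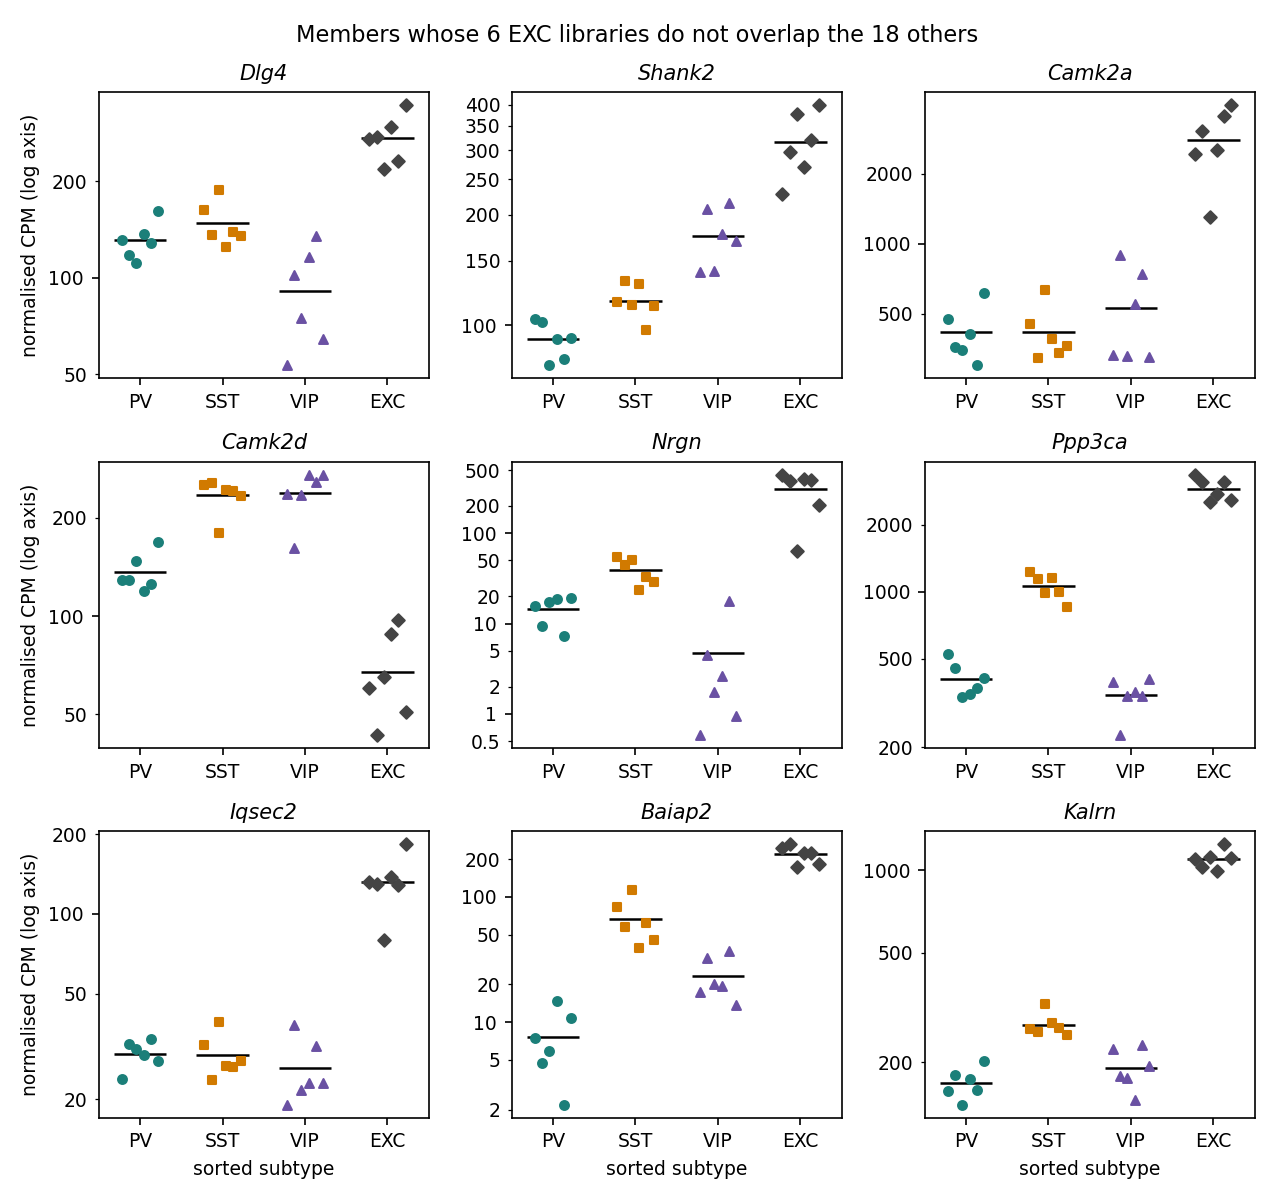
Normalised CPM (log axis) in each library of the 9 genes whose EXC libraries do not overlap the other 18; horizontal lines are means of 6. Camk2d is lower in EXC, and the other 8 genes are higher in EXC. EXC replicate 3 is the lowest EXC library for Dlg4, Camk2a, Nrgn, Ppp3ca, Iqsec2 and Baiap2, and not for Shank2 and Kalrn.

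The IQSEC genes encode exchange factors for Arf GTPases that control receptor trafficking, and they moved in different directions. Iqsec1 (NCBI Gene 232227, chromosome 6, 90659596 to 90988480) had 495, 623 and 722 CPM in PV, 207, 252 and 286 CPM in SST and 149, 162 and 207 CPM in VIP, against 59.4, 187 and 216 CPM in EXC. PV lay above every other library, and EXC replicate 3 was the lowest of all 24. It was higher in PV than in EXC by 1.88 ± 0.20, than in SST by 1.28 ± 0.20 and than in VIP by 1.83 ± 0.21 (adjusted p = 2.44e-08, 2e-05 and 6.04e-08). Its higher level in SST than in VIP (0.55 ± 0.20, 0.0405) was lost without SST replicate 5 (0.0572). With pool as a covariate PV over SST was -0.71 (0.14) and PV over VIP 0.038 (0.955). Iqsec2, an X-linked gene of intellectual disability (NCBI Gene 245666, chromosome X, 152144183 to 152225237), had 23.9, 30.1 and 33.6 CPM in PV, 23.6, 27.3 and 39.2 CPM in SST and 19.04, 23.00 and 38.2 CPM in VIP, against 79.7, 131 and 183 CPM in EXC. EXC libraries lay above the rest, with fold changes of -2.14 ± 0.20, -2.17 ± 0.19 and -2.34 ± 0.20, and no GABA pair was called. Iqsec3, which binds gephyrin at inhibitory synapses, averaged 134 ± 37.3 CPM in PV, 70.2 ± 11.2 CPM in SST and 103 ± 40.4 CPM in VIP, against 93.4 ± 17.4 CPM in EXC. It was higher in PV than in SST (0.94 ± 0.22, adjusted p = 0.00176). Its call in PV against EXC (0.53 ± 0.22, 0.0473) was lost without EXC replicate 3, EXC replicate 6 or PV replicate 6 (adjusted p = 0.0678, 0.0548 and 0.0764). Its call in SST against VIP (-0.58 ± 0.22, 0.0447) was lost without SST replicate 5, VIP replicate 2 or VIP replicate 5 (0.0749, 0.108 and 0.21), and without the last PV was higher than VIP (0.0442). In shares of the summed Iqsec RPKM, Iqsec1 took 77.4% ± 5.07 in PV, 69.6% ± 3.26 in SST and 56.2% ± 4.83 in VIP, against 37.2% ± 6.64 in EXC, and all 6 pairs differed (adjusted p = 0.00588 each, exact permutation test).

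All 5 regulators of spine actin and small GTPases were lower in PV and VIP than in EXC, and 4 of 5 in SST. Baiap2 encodes IRSp53, an adaptor between PSD-95 and actin (NCBI Gene 108100, chromosome 11, 119939916 to 120006782). It had 2.18, 6.67 and 14.8 CPM in PV, 39.00, 59.4 and 114 CPM in SST and 13.7, 19.9 and 37.2 CPM in VIP, against 174, 224 and 262 CPM in EXC. SST and VIP did not overlap, and PV overlapped VIP by 1 library. The fold changes against EXC were -4.92 ± 0.35 in PV, -1.78 ± 0.28 in SST and -3.15 ± 0.30 in VIP (adjusted p = 1.11e-11, 1.57e-05 and 3.02e-09), and between GABA sorts -3.14 ± 0.34 for PV over SST, -1.77 ± 0.34 for PV over VIP and 1.36 ± 0.30 for SST over VIP. Kalrn, an exchange factor for Rac that enlarges spines (NCBI Gene 545156, chromosome 16, 33969073 to 34573277), had 139.7, 166 and 202 CPM in PV, 251, 265 and 326 CPM in SST and 145, 186 and 231 CPM in VIP, against 994, 1104 and 1243 CPM in EXC. No GABA library reached the lowest EXC library, and it had the lowest adjusted p of the 31 genes for the GABA mean (-2.39 ± 0.09, adjusted p = 2.14e-17). Synpo, which encodes synaptopodin of the spine apparatus, had 12.9, 18.1 and 21.8 CPM in PV, 34.7, 40.6 and 86.1 CPM in SST and 9.13, 16.7 and 36.4 CPM in VIP, against 76.99, 147 and 184 CPM in EXC, with fold changes of -2.99 ± 0.31, -1.57 ± 0.28 and -2.78 ± 0.30. Ppp1r9b, which encodes spinophilin, averaged 60.7 ± 8.31 CPM in PV, 55.4 ± 17.9 CPM in SST and 40.9 ± 21.5 CPM in VIP, against 128 ± 40.03 CPM in EXC, and no GABA pair was called, though PV was higher than VIP without VIP replicate 2 (adjusted p = 0.00816). Arhgap32, which encodes a GTPase-activating protein, averaged 281 ± 23.9 CPM in PV, 349 ± 56.6 CPM in SST and 219.5 ± 21.97 CPM in VIP, against 401 ± 120.4 CPM in EXC, and became lower in SST than in EXC without EXC replicate 3 (-0.31, adjusted p = 0.0374), as did PV against SST (0.0496), while PV became higher than VIP (0.0223).

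Promoters of 4 of these genes are shown because Nrgn, Baiap2 and Camk2b were lower and Camk2d higher in all 3 GABA sorts. Each run is the 250 bases before a transcript start that RefSeq lists on GRCm38.p6, 5′ to 3′ on the gene's strand. For Nrgn that start is the outermost of the gene, but for Baiap2, Camk2b and Camk2d it lies 3176, 609 and 1464 bases inside the gene, downstream of the outermost annotated start, and which start these neurons use was not measured. Capitals mark CAGATG, the E-box bound by NeuroD factors, and the GC box GGGCGG, on either strand (CATCTG and CCGCCC in reverse).
Nrgn, chr9:37552746-37552995, minus strand: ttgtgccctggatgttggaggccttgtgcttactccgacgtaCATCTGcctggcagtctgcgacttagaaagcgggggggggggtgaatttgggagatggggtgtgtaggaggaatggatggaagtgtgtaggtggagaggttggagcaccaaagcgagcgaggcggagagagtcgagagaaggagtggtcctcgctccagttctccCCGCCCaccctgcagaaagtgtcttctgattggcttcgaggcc
Baiap2, chr11:119942842-119943091, plus strand: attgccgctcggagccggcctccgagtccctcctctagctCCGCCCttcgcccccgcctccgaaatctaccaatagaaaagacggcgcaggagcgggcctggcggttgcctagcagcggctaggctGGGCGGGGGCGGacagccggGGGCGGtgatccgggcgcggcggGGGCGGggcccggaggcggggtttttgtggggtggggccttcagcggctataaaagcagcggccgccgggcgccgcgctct
Camk2b, chr11:6065749-6065998, minus strand: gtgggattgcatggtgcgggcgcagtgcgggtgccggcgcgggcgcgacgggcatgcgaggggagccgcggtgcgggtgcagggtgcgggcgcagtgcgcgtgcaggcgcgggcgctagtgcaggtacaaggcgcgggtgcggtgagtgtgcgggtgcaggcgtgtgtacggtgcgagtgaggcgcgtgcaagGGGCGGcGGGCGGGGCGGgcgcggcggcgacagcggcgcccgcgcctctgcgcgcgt
Camk2d, chr3:126596701-126596950, plus strand: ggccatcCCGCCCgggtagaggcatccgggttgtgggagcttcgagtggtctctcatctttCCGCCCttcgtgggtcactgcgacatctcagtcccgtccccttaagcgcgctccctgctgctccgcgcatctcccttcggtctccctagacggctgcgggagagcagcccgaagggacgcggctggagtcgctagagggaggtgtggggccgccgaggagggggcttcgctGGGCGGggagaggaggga
The E-box occurred once in the Nrgn window and not in the other 3, and the GC box occurred 1 time in Nrgn, 5 times in Baiap2 and 3 times each in Camk2b and Camk2d, with overlapping matches counted separately. Of the 31 genes 23 had promoter entries, 41 windows in all. The GC box was in 58.5% of these windows and in 32.7% of all 32851 windows, and the E-box in 7.32% and 14.4%. CACGTG, another E-box, was in 12.2% and 6.02%, and the half-site TGACG of the cyclic AMP response element in 7.32% and 17.8%. These are matches of letters, not sites shown to be bound.

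Of the remaining binding partners, Lzts3, which binds SHANK proteins, averaged 20.6 ± 4.26 CPM in PV, 28.8 ± 9.603 CPM in SST and 13.1 ± 3.91 CPM in VIP, against 51.6 ± 9.29 CPM in EXC. It was lower than EXC in all 3 (-1.32 ± 0.23, -0.85 ± 0.22 and -1.97 ± 0.23) and lower in VIP than in PV and SST. Begain, which binds PSD-95, averaged 6.79 ± 3.52 CPM in PV, 8.39 ± 3.19 CPM in SST and 13.6 ± 6.61 CPM in VIP, against 12.1 ± 4.45 CPM in EXC. No pair with EXC was called, though PV was lower without EXC replicate 3 (adjusted p = 0.0495), and the call as lower in PV than in VIP (-0.95 ± 0.37, adjusted p = 0.0328) was lost without PV replicate 6, VIP replicate 2 or VIP replicate 5 (adjusted p = 0.0721, 0.0744 and 0.106). Gphn, the gephyrin gene (NCBI Gene 268566, chromosome 12, 78217325 to 78684772), averaged 63.9 ± 8.42 CPM in PV, 64.5 ± 5.13 CPM in SST and 88.96 ± 8.93 CPM in VIP, against 78.7 ± 16.6 CPM in EXC. It was called in no pair with EXC, except as lower in PV without EXC replicate 6 (adjusted p = 0.0375), and was lower in PV (-0.48 ± 0.14, adjusted p = 0.0079) and SST (-0.46 ± 0.14, 0.0149) than in VIP. The SST call was lost without SST replicates 1 and 3 together (-0.44, adjusted p = 0.0523) and within POOL7098 (-0.42, 0.0792), and the PV call with pool as a covariate (-0.087, 0.892).

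Between the GABA sorts, fewer of the 31 genes differed. PV was higher than SST for 5 and lower for 7 (all genes 11.4% and 14.9%), and PV was higher than VIP for 8 and lower for 9 (21.9% and 26.7%). SST was higher than VIP for 14 and lower for 6 (14.6% and 16.7%). The 14 were Dlg1, Dlg4, Dlgap2, Camk2b, Camk2g, Camk4, Nrgn, Ppp3ca, Iqsec1, Baiap2, Synpo, Arhgap32, Kalrn and Lzts3, and the 6 were Dlg2, Shank1, Shank2, Homer2, Iqsec3 and Gphn. Median log2 fold changes were -0.16 for PV over SST, 0.19 for PV over VIP and 0.23 for SST over VIP, beside -0.03, -0.09 and 0.00 over all genes. Dlgap2, Homer2, Camk2g, Camk4, Iqsec1 and Baiap2 were called in all 3 pairs, and Dlg3, Dlgap4, Shank3, Homer3, Camk2a, Iqsec2 and Ppp1r9b in none. Within POOL7098, with 5 SST and 2 VIP libraries, SST was higher for 16 and lower for 1, Homer2, where 20.6% of all genes in that fit were higher and 21.2% lower. PV shares no pool with SST or VIP. It is linked to VIP by EXC replicate 3 alone, and to SST by that library and then by VIP replicates 1 and 3 in POOL7098. With pool as a covariate in edgeR, PV was higher than SST for 0 of the 31 genes (0 at an unadjusted p under 0.05; 7.39% of all genes called) and lower for 16 (14.5%), and higher than VIP for 1 (5.12%). The 5 genes called higher in PV than in SST all lost that call: Dlgap2 was at 0.50 (adjusted p = 0.337), and Shank1, Camk2g, Iqsec1 and Iqsec3 turned to -0.99, -0.34, -0.71 and -0.18.

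**Figure D4:**
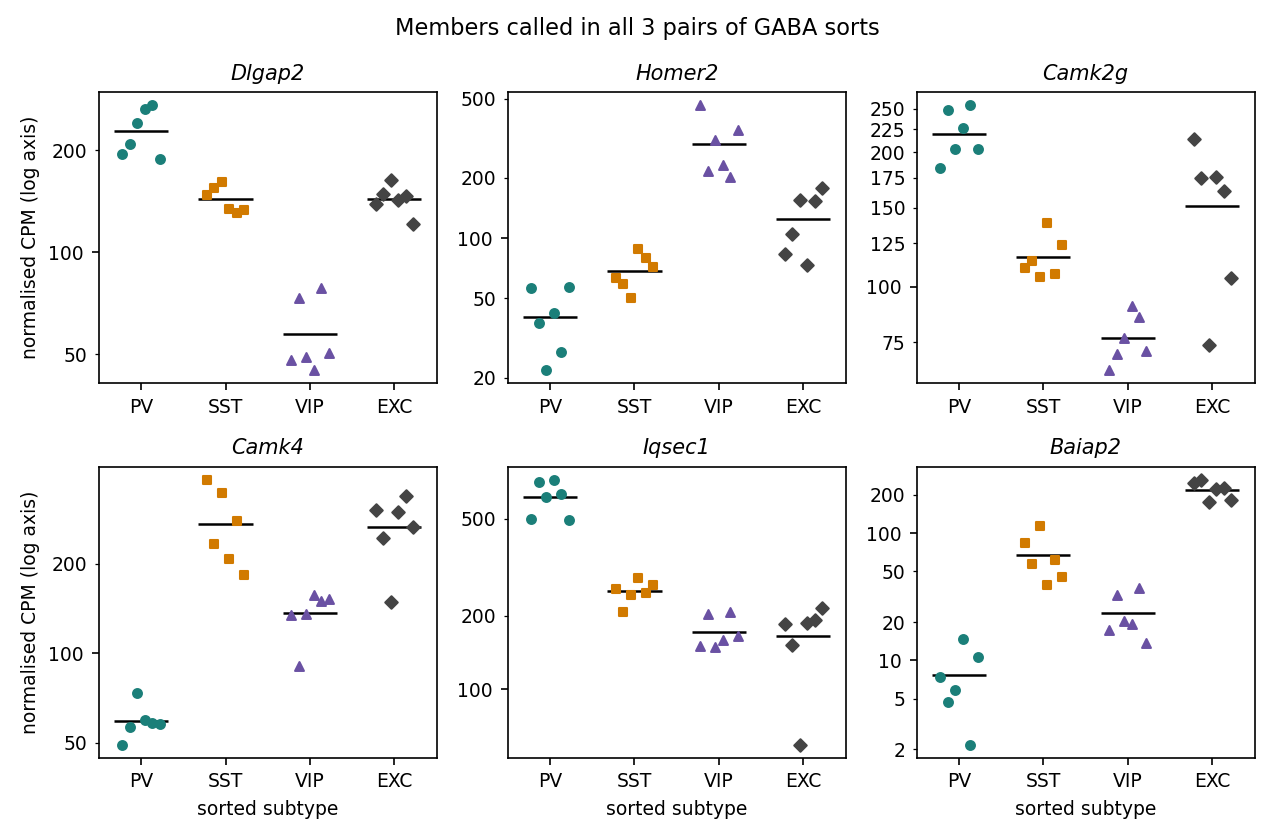
Normalised CPM (log axis) in each library of the 6 genes called in all 3 pairs of GABA sorts; horizontal lines are means of 6. PV is highest for Dlgap2, Camk2g and Iqsec1, SST for Camk4 and Baiap2 among the GABA sorts, and VIP for Homer2.

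Libraries of SST and of VIP were not uniform in these genes. How often the same libraries ranked highest over all genes was not counted, so this is not read as particular to the 31. SST replicates 1 and 3 were the highest 2 of their subtype for 18 of the 31 genes, among them Nrgn (54.8 and 50.03 CPM), Camk4 (383 and 344 CPM) and Baiap2 (83.5 and 114 CPM). The same libraries had the highest medium spiny neuron sums, 1359 and 1475 CPM, against 396 to 768 CPM in the other 4, and the part of such cells in these levels was not tested. Without both libraries SST was higher than VIP for 13 and lower for 4 of the 31 genes (13.0% and 11.5% of all genes in that fit), and lower than EXC for 18 (16.3%). VIP replicates 2 and 5 were the highest 2 VIP libraries for 19 genes and the lowest 2 for Dlg2 and Homer2. Camk2a stood at 897 and 745 CPM there, while VIP replicate 4 had 547 CPM and the other 3 had 326 to 332 CPM. Oligodendrocyte markers summed to 350.3, 278 and 736 CPM in VIP replicates 2, 4 and 5, against 54.03 to 117 CPM in the others, and excitatory markers to 41.5, 39.7 and 86.3 CPM, against 24.7 to 25.3 CPM. Their part in the VIP spread was not tested. The median coefficient of variation over the 31 genes was 13.7% in PV, 20.2% in SST and 29.3% in VIP, against 24.9% in EXC.

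**Figure D5:**
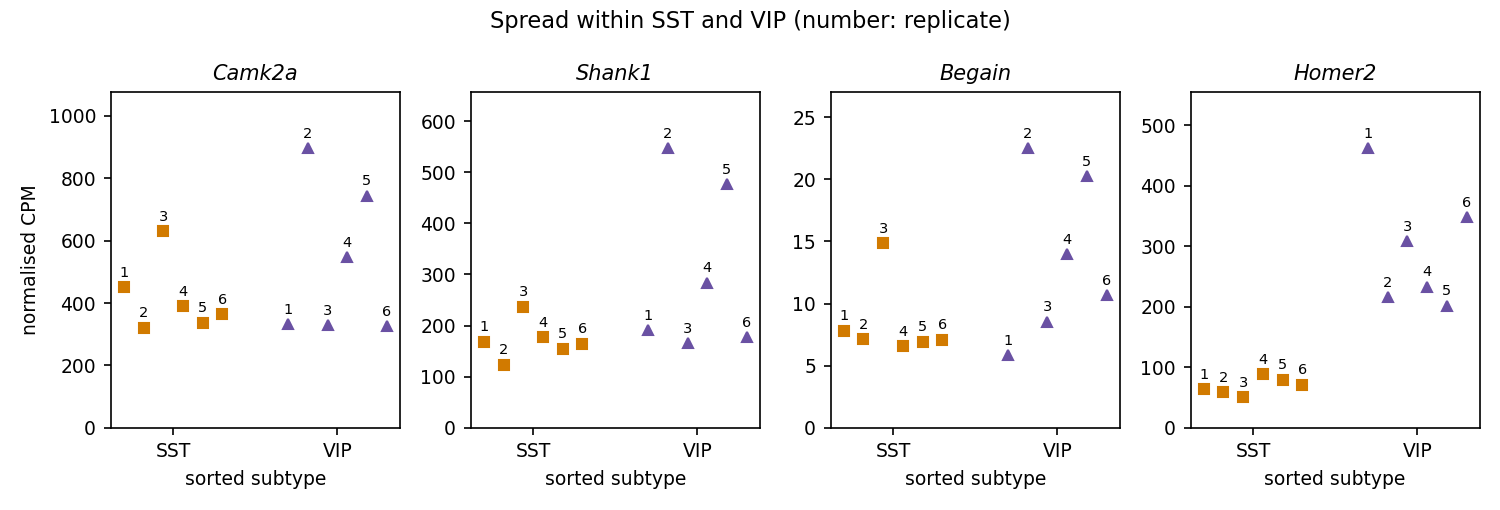
Normalised CPM of Camk2a, Shank1, Begain and Homer2 in the SST and VIP libraries, with replicate numbers above the points. VIP replicates 2 and 5 are the highest for Camk2a, Shank1 and Begain and the lowest for Homer2, and SST replicate 3 is the highest SST library for Camk2a, Shank1 and Begain.

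Sex, the other factor in the labels, left no call among the 31 genes. Female against male gave 0 called genes of 31 and 0 at an unadjusted p under 0.05 in edgeR's quasi-likelihood test, 0 in DESeq2, and 0.0403% of all genes tested. Terms for a sex difference particular to PV, SST or VIP gave 0 called genes of 31 each, 1 each at an unadjusted p under 0.05, and 0% of all genes.

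Other genes of the same pathways were counted from lists of genes outside the set, for the GABA mean against EXC, where 18.1% of all genes were higher and 24.5% lower. These lists were chosen with earlier results of these data known, so their counts describe the lists and are no independent support. Of 18 other density scaffolds and Ras or Rap regulators 1 was higher and 16 lower, led by Tanc1, a scaffold with ankyrin repeats (-4.19 ± 0.14). Of 17 other calmodulin, CaM kinase and calcineurin genes 5 were higher, among them the calcineurin inhibitor gene Rcan2 (2.73 ± 0.17), and 9 lower, among them the upstream kinase gene Camkk1 (-2.14 ± 0.17). Of 14 other kinases and phosphatases 1 was higher and 7 lower, led by the tyrosine kinase gene Ptk2b (-5.03 ± 0.23). Of 16 other spine actin regulators 1 was higher and 15 lower, led by Rgs14 (-3.87 ± 0.36) and Dock10 (-3.15 ± 0.18). Of 5 inhibitory postsynapse genes 1 was higher, Insyn2a (1.93 ± 0.32), and 2 lower, among them Insyn1 (-0.62 ± 0.17). SST was higher than VIP for 8 of 18 scaffolds, 8 of 17 calmodulin-related genes, 8 of 14 kinases and phosphatases and 4 of 16 spine actin regulators (14.6% of all genes). Among those higher in SST were the membrane anchor gene Akap5 (2.97 ± 0.16) and the CaM kinase gene Camk1d (2.65 ± 0.18). It was lower than VIP for 3 of the 16 spine actin regulators and 1 of the 5 inhibitory postsynapse genes (16.7% of all genes).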

How the data were processed

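Neurons were dissociated with papain from adult mouse cortex, sorted by reporter fluorescence and profiled as bulk RNA, per the labels' protocols. Reads were aligned with GSNAP to GRCm38, per the submitters' processing notes; no source used here gives versions, annotation release or strand setting. The deposited values used are raw read counts per gene and the authors' size-factor-adjusted RPKM, used for levels between genes. Counts were filtered by expression in edgeR 4.0.16 (R 4.3.3), scaled by TMM and fitted over all 24 libraries with subtype and sex as terms; the quasi-likelihood test was adjusted over 14890 genes at 0.05. Standard errors are the fold change over the square root of F. Shares were tested with scipy 1.17.1 under Python 3.11.15. The test was checked on simulated data. DESeq2 1.42.0, other scalings and filters, pool, and left-out libraries were alternatives. Members and gene lists were chosen with earlier results of these data known, and every member is named. Of the listed pathway genes, those named are among the largest called changes, and some are not reported here. Replicate numbers follow accession order and pair no samples. No library pair of a subtype agreed within sampling noise (60 pairs, smallest chi-square per degree of freedom 5.58).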

Additional observations from a re-analysis of the deposited data

Results flagged for a closer look

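In 10 of the 124 groups of 6 libraries formed by 31 genes and 4 subtypes, 1 library stood apart from the other 5 by a gap, relative to the group's range, above Dixon's 95% critical value, where chance gives about 1 group in 20. SST replicate 3 stood apart in 5 of them: Homer3 at 5.05 CPM (the others 2.54 to 3.46), Synpo at 86.1 CPM (34.7 to 51.1), Kalrn at 326 CPM (251 to 278), Begain at 14.8 CPM (6.56 to 7.83) and, low, Camk2d at 180.1 CPM (233 to 256). VIP replicate 2 was low for Camk2d, at 161 CPM (235 to 270.5), and for Camk4, at 90.7 CPM (135 to 157). VIP replicate 5 was high for Nrgn, at 17.7 CPM (0.583 to 4.50). EXC replicate 3 was low for Camk2b, at 397 CPM (946 to 1153), and PV replicate 6 for Dlgap4, at 67.6 CPM (83.9 to 88.1).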

How the results depend on the processing

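With pool as a covariate, 165 of 248 gene results kept direction and call, 35 lost the call, 14 gained one and 34 reversed; SST and VIP against EXC then rest on EXC replicate 3. It gave 14 of the 31 genes lower for the GABA mean, 4 lower for SST and 11 lower for VIP (1708 of all genes) against EXC, 0 higher and 16 lower for PV against SST (1101 of all genes higher), 1 higher for PV against VIP (762 of all genes higher, 1579 lower) and 2 lower for SST against VIP. Reversed log2 fold changes under it were, for the GABA mean against EXC, 0.26 for Dlgap3, 0.32 for Dlgap4, 0.22 for Shank1, 0.023 for Shank3 and 0.30 for Arhgap32; for SST against EXC, 0.22 for Dlg3, 0.21 for Dlg4, 1.02 for Dlgap3, 0.99 for Dlgap4, 0.53 for Shank1, 0.78 for Shank3, 0.36 for Camk2b, 1.74 for Nrgn, 0.82 for Ppp1r9b, 0.31 for Synpo and 1.15 for Arhgap32. For VIP against EXC they were 0.38 for Dlgap4, 0.53 for Shank3, 0.022 for Camk4 and 0.39 for Arhgap32. For PV against SST they were -1.39 for Dlgap4, -0.99 for Shank1, 0.15 for Homer2, -2.31 for Camk2a, -0.34 for Camk2g, -0.71 for Iqsec1, -1.37 for Iqsec2, -0.18 for Iqsec3 and -1.99 for Ppp1r9b. For PV against VIP they were -0.83 for Dlg3, -0.12 for Dlg4, -1.50 for Camk2b, -1.60 for Nrgn and -1.02 for Arhgap32. Within 1 pool SST was lower than VIP for 1 gene (3386 of all genes higher), and Shank1 (0.046) and Iqsec3 (0.038) reversed. Fits of only the 2 subtypes compared gave 1 gene higher in SST than in EXC, 1791 of all genes higher in VIP than in EXC and 2600 higher in PV than in SST. Without EXC replicates 2, 3 and 6, an alternative chosen after seeing the data, as were those leaving out SST or VIP libraries for their markers, 3 genes were higher in PV than in EXC. DESeq2 kept 242 of 248 gene results. The cause of these changes was not tested. No paired analysis was possible because the labels carry no replicate numbers. Depth is lowest in PV, and the SD of a share is its spread over the 6 libraries of a subtype.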
